A study of Homo sapiens with 11 samples.

Results

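The 8 genes described here encode the subunits of the AMP-activated protein kinase (AMPK) and its main activating kinases. They were chosen by symbol, and all 8 were found among the 26485 gene symbols of both count tables and passed the filter on low counts at both time points. The libraries came from RNA of Caki-1-SR clone 1, a single sunitinib-resistant clone derived from Caki-1, a human clear cell renal cell carcinoma line that came from a skin metastasis. All cultures, the controls included, belonged to a line grown in medium with 1 µM sunitinib, an inhibitor of receptor tyrosine kinases. The treated groups received the optimized drug combination (ODC), which held the ruthenium compound Rapta-C at 2 µM, the EGFR inhibitor erlotinib at 1 µM, 1 µM metformin (a diabetes drug) and parthenolide at 5 µM (an anti-inflammatory compound of feverfew). There were 3 control (CTRL) and 3 ODC libraries at 24 h, and 2 CTRL and 3 ODC libraries at 2 h. The control is called both sham-treated and untreated in the sources. No library came from cells given metformin alone, so the part of each drug in a value cannot be told apart.

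AMPK is an energy sensor made of a catalytic α subunit, a scaffolding β subunit that can bind glycogen, and a γ subunit that binds AMP, ADP and ATP. When ATP falls, AMP or ADP on the γ subunit favours phosphorylation of the α subunit by LKB1, the product of STK11, while CaMKK2 carries out the same step when calcium rises. Active AMPK turns off fat and sterol synthesis and mTORC1 and turns on glucose uptake, fat oxidation and autophagy. Metformin acts on mitochondrial energy metabolism and is widely known as an indirect activator of AMPK. The activity of AMPK is set by phosphorylation, which RNA levels do not measure.

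The 24 h libraries held between 17785229 and 20882856 counts each, and those of 2 h between 25782895 and 31118349. The time points were labelled with different months, so time and month cannot be told apart, and the libraries of each time point were scaled apart from the other. The labels do not say whether the libraries of a group came from separate cultures, so p-values measure the spread between libraries, which may be technical. Of the renal and tumour markers, PAX8, KRT8, KRT18, VIM, CDH6 and NDUFA4L2 were present in every library, whereas CA9, PAX2 and KRT19 were at or near 0 in the 24 h libraries. At 24 h the summed renal markers lay between 4670 and 5483 CPM in CTRL and between 3747 and 4650 in ODC, and VIM made up most of this sum. Of the 6 markers tested at 24 h, 5 had a log2 fold change below 0, and KRT8, KRT18 and VIM were each lower in every ODC library. The renal lineage gene PAX8 was the exception, with 530 ± 112 CPM (SD, n = 3) in CTRL and 668 ± 193 CPM in ODC, groups that overlapped (log2 fold change 0.33, adjusted p = 0.6). Their part in the results was not tested. CTRL replicate 1 at 2 h stood apart: it held 971 counts of COL1A2 and 1081 of COL3A1, fibrillar collagen genes of fibroblasts, where the other 4 libraries at 2 h had at most 11 and 6. It also had 48 counts of KRT19, against at most 3 in the others, and 100 of EPCAM, against 19 to 27. The 6 fibroblast markers summed to 323 CPM in it and to 134 to 164 in the other 2 h libraries, most of it from COL1A1, which every library held, and to 60.2 to 123 at 24 h. The endothelial markers summed to at most 1.28 CPM and the immune markers to at most 2.76 in any library. Its part in the results was not tested, and the 2 h log2 fold change of each of the 8 genes is given with and without this library.

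Promoter sequences are shown for STK11 and PRKAG2, the 2 genes with the lowest unadjusted p at 24 h, because the RNA of both was higher in all 3 ODC libraries than in all 3 CTRL libraries. Each window runs 5′ to 3′ on the coding strand from 250 bases before to 50 bases after a RefSeq start (GRCh38.p14). Capitals mark matches, on either strand, to 5 short motifs: the antioxidant response element TGACNNNGC, the E-box CACGTG, the cAMP response element TGACGTCA, the GC box GGGCGG and the CCAAT box CCAAT. Matches that overlap each other run together in capitals. The matches are descriptions of letters and not binding sites. The STK11 window is chr19:1205528-1205827 on the plus strand, and the PRKAG2 windows, on the minus strand, are chr7:151877066-151877365 at start 1, the outermost of 5 RefSeq starts, chr7:151736214-151736513 at start 3 and chr7:151633062-151633361 at start 4. Starts 2 (no match) and 5 (4 GC boxes) of PRKAG2 are not shown. Counts per gene cannot tell which start was used, and the STK11 window lies inside the annotated span of that gene, whose outermost transcript starts further upstream.
STK11: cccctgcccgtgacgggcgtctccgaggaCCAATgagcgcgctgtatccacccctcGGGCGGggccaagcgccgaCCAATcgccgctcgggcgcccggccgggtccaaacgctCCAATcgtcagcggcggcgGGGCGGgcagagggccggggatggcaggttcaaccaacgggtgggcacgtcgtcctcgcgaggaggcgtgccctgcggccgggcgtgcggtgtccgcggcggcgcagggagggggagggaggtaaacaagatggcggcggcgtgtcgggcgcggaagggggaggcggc
PRKAG2 start 1: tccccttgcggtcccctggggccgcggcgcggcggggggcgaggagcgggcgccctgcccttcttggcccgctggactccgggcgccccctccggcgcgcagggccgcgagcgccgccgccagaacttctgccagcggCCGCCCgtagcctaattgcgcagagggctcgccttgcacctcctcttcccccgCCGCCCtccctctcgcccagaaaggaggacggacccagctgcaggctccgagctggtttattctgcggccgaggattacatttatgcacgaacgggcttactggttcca
PRKAG2 start 3: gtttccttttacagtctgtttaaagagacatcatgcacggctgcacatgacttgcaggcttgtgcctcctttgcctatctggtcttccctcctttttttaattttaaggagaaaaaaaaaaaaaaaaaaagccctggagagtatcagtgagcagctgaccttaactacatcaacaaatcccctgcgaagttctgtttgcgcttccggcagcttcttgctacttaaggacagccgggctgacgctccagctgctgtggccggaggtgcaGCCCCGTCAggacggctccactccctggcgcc
PRKAG2 start 4: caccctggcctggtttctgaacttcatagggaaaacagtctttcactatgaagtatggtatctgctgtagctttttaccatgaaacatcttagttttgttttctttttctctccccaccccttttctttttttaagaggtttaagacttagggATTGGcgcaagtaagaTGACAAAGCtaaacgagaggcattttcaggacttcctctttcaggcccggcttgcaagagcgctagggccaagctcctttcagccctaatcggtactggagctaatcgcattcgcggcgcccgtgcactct

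The STK11 window holds 3 CCAAT boxes and 2 GC boxes. Start 1 of PRKAG2 holds 2 GC boxes, start 4 holds 1 CCAAT box, and starts 3 and 4 hold 1 match each to the antioxidant response element, the sequence bound by NRF2, a factor that switches on detoxifying genes. Across 35116 RefSeq promoter windows of the same length, 45.0% hold the GC box, 34.6% the CCAAT box and 13.3% the antioxidant response element, so none of these matches is rare. PRKAA1, whose level was nearly equal in ODC and CTRL at 24 h, also holds 1 antioxidant response element, with 8 GC boxes. PRKAB1 has none of the 5 motifs, and PRKAB2 has 1 GC box and 1 CCAAT box. PRKAA2 has 5 GC boxes, PRKAG1 has 4, and CAMKK2 has 8 with 1 CCAAT box. The E-box (7.26% of windows) and the cAMP response element (1.85%) were in none of the members' windows.

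In CTRL cells the α1 subunit gene PRKAA1 and the γ1 subunit gene PRKAG1 had the highest levels per length. The α2 subunit gene PRKAA2 had the lowest, though it was detected in every library. CPM divided by the length of all annotated exons in kilobases (GENCODE release 44) gave 16.9 ± 1.84 (SD, n = 3) for PRKAA1 and 16.0 ± 1.25 for PRKAG1 at 24 h, and the ranges of these 2 genes overlapped. CAMKK2 followed with libraries from 6.72 to 7.20, apart from both its neighbours. PRKAB2 (5.48 ± 0.966), PRKAG2 (5.15 ± 0.267), STK11 (4.89 ± 0.516) and PRKAB1 (4.81 ± 0.166) formed a group in which each gene overlapped the next. PRKAA2 was last at 0.355 ± 0.0126 CPM per kilobase, from 58 to 69 counts a library. PRKAG3, the γ3 subunit gene known from skeletal muscle, had 0 counts in all 11 libraries, which allows up to 3 counts in a library, or at most 0.166 CPM, for counting error alone. The order at the extremes held at 2 h, where PRKAG1 (19.6 ± 0.152, n = 2) and PRKAA1 (19.2 ± 2.38) overlapped at the top and PRKAA2 (0.206 ± 0.0396) was last.

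The middle of this order depended on the length used. PRKAG2 has 35 annotated transcripts that together cover 16580 bases of exon, but its longest coding sequence has 1707. Per kilobase of coding sequence, in CTRL at 24 h PRKAG2 (50.0 ± 2.59 CPM per kilobase) was exceeded only by PRKAG1 (65.4 ± 5.10) and PRKAA1 (56.6 to 70.3 over the libraries). The mean of CAMKK2 (28.5 ± 1.03) exceeded only that of PRKAA2, but its libraries (27.3 to 29.3) overlapped those of STK11 (29.1 to 35.5). PRKAA2 stayed last on this scale too, at 2.01 ± 0.0712 CPM per kilobase.

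The make-up of each subunit class was taken from the same levels. PRKAA1 made up 97.9% ± 0.292 of the α subunit RNA in CTRL at 24 h and 98.9% ± 0.335 at 2 h. The β subunit RNA was divided more evenly, with PRKAB1 at 47.0% ± 4.78 at 24 h and 43.2% (35.8% and 50.6% in the 2 libraries) at 2 h. PRKAG1 made up 75.6% ± 2.36 of the γ subunit RNA in CTRL at 24 h, with 77.9%, 75.7% and 73.2% in the 3 libraries. In ODC at 24 h its share was 69.9%, 70.2% and 64.8%, below every CTRL library, and at 2 h it was 75.8% ± 0.319 in CTRL and 76.8% ± 0.948 in ODC. Per kilobase of coding sequence the share of PRKAG1 at 24 h was 56.6% ± 3.14 in CTRL and 47.6% ± 3.48 in ODC, so the class was then divided about evenly and the ODC libraries were again lower. The share of PRKAG1 depends on both γ genes, whose own values follow, and it was not tested. PRKAG1 shares 2061 exonic bases with a same-strand protein-coding gene (ENSG00000288710), so its counts are uncertain.

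**Figure D1:**
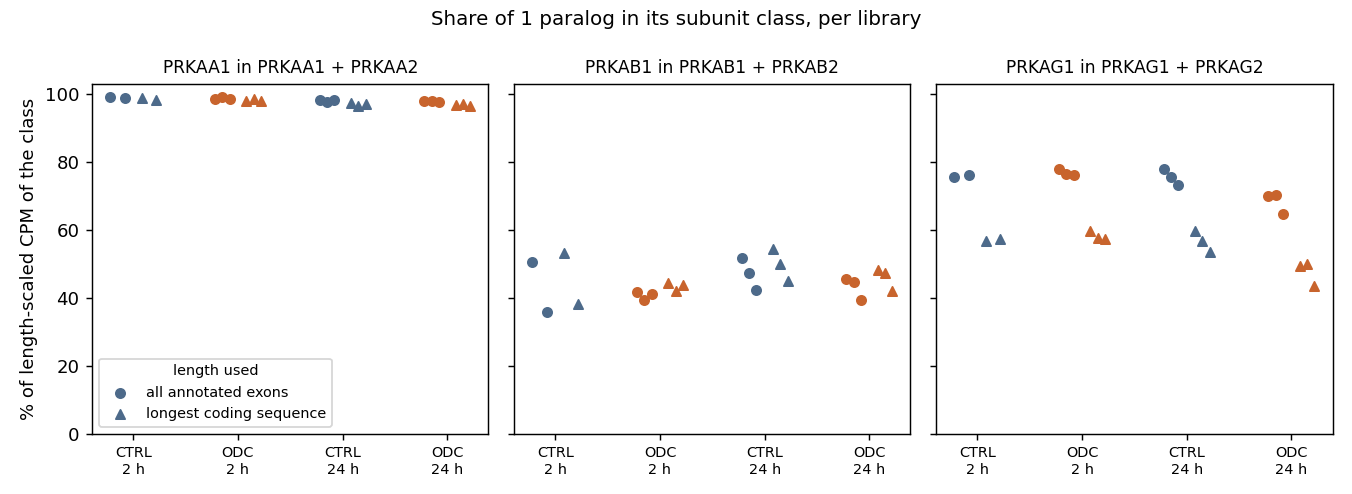
Share of 1 paralog in the RNA of its AMPK subunit class (y axis, % of length-scaled CPM) in each library, for CTRL (blue) and ODC (orange) at 2 h and 24 h, with length taken from all annotated exons (circles) or the longest coding sequence (triangles). PRKAA1 was near 100% of α in every library, and the share of PRKAG1 in γ was lower in the 3 ODC libraries at 24 h (64.8% to 70.2%) than in the 3 CTRL libraries (73.2% to 77.9%).

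At 24 h, the question was whether the genes of the kinase that metformin is known to activate differ in RNA level after the combination. Of the 8 genes, 2 (PRKAG2 and STK11) had an unadjusted p under 0.05 in edgeR's quasi-likelihood (QL) test, both higher in ODC, and 0 had an adjusted p under 0.05. Among all 12689 genes tested, 12.2% had such an unadjusted p, 7.2% higher and 5.04% lower in ODC, and 0.189% had an adjusted p under 0.05. The 8 genes had a median log2 fold change of 0.13, with 6 above and 2 below 0, against 0.00089 over all genes tested. All 8 intervals stayed below a 2-fold change in either direction. Bulk RNA cannot tell fewer cells of a type from less RNA per cell.

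PRKAG2 encodes γ2, the nucleotide-binding subunit whose mutations are known to cause a glycogen-storing heart disease. It lies on chromosome 7 of hg38 from 151556124 to 151877214 on the minus strand. Its level was 81.5, 84.4 and 90.2 CPM in the CTRL libraries at 24 h and 117, 108 and 111 CPM in the ODC libraries. The groups did not overlap, as in 17.9% of all genes tested at 24 h, and the lowest ODC library was well above the highest CTRL library. The mean was 85.4 ± 4.43 CPM (SD, n = 3) in CTRL and 112 ± 4.48 CPM in ODC. PRKAG2 had a log2 fold change of 0.39 with a standard error (SE) of 0.090 (95% interval 0.19 to 0.60), and the edgeR QL test gave it an unadjusted p of 0.00238 and an adjusted p of 0.14. With DESeq2 its adjusted p was 0.0289, and in a joint edgeR fit of all 11 libraries it was 0.042, in a range from 0.0289 to 0.582 over 15 alternatives. PRKAG2-AS1, on the opposite strand, shares 99 exonic bases with it. The kit marks strand, but the strand setting of the counting is not given in the sources used here.

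STK11 encodes LKB1, the tumour suppressor kinase that phosphorylates AMPK when energy is low. It lies on chromosome 19 from 1177558 to 1228431 on the plus strand, and 145 of its exonic bases overlap CBARP on the other strand. Its level at 24 h was 37.8, 46.1 and 45.2 CPM in CTRL and 57.6, 53.5 and 54.0 CPM in ODC. The groups did not overlap, and CTRL replicate 1 was the lowest of the 6 libraries. STK11 had a log2 fold change of 0.35 (SE 0.11, 95% interval 0.10 to 0.61), and the edgeR QL test gave it an unadjusted p of 0.0115 and an adjusted p of 0.246. Without CTRL replicate 1 the log2 fold change was 0.26 and its unadjusted p in the same test 0.053. The adjusted p ranged from 0.122 to 0.725 over its 15 alternatives.

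CAMKK2, the calcium-dependent kinase upstream of AMPK, had nearly equal means at 24 h, 50.2 ± 1.82 CPM (SD, n = 3) in CTRL and 51.0 ± 5.83 CPM in ODC. Its CTRL libraries had 50.9, 48.2 and 51.6 CPM, inside the range of the ODC libraries at 44.5, 55.8 and 52.6 CPM. The log2 fold change was 0.02 (95% interval -0.23 to 0.28), that is between 0.850-fold and 1.21-fold. CAMKK2 lies on chromosome 12 from 121237675 to 121298308 on the minus strand.

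The catalytic subunit gene PRKAA1 had 121, 97.5 and 114 CPM in CTRL and 115, 97.3 and 117 CPM in ODC at 24 h. The libraries of both groups covered the same range. Its log2 fold change was -0.02 (95% interval -0.29 to 0.26), that is between 0.818-fold and 1.20-fold. PRKAA2, the other catalytic gene, had 3.32, 3.44 and 3.21 CPM in CTRL and 3.59, 3.03 and 4.09 CPM in ODC. At 56 to 85 counts a library its interval was the widest of the 8 at 24 h, from -0.35 to 0.56 on the log2 scale around a log2 fold change of 0.10. PRKAA1 lies on the minus strand of chromosome 5 from 40759389 to 40798374, and PRKAA2 on the plus strand of chromosome 1 from 56645314 to 56715335.

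The scaffold gene PRKAB2 (β2) had 25.5, 28.5 and 35.7 CPM in CTRL and 38.0, 33.3 and 45.6 CPM in ODC at 24 h. Only CTRL replicate 3 reached into the ODC range. The log2 fold change of 0.38 (SE 0.17, 95% interval -0.0026 to 0.77) was as large as that of PRKAG2, but the spread between libraries was wider, and its unadjusted p was 0.0512 and its adjusted p 0.413 in the edgeR QL test. In 6 of its 15 alternatives PRKAB2 had an unadjusted p under 0.05, and its adjusted p ranged from 0.275 to 0.885. PRKAB1 (β1) had 30.2, 28.2 and 28.8 CPM in CTRL and 35.1, 29.7 and 32.7 CPM in ODC, with a log2 fold change of 0.16 (95% interval -0.094 to 0.41). Only the lowest ODC library of PRKAB1 fell within the CTRL range. PRKAB2 lies on the minus strand of chromosome 1 from 147155106 to 147172550, and PRKAB1 on the plus strand of chromosome 12 from 119667864 to 119681624, where it shares exonic bases with an opposite-strand long non-coding RNA gene.

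PRKAG1, the γ gene with more RNA per length of all annotated exons, lies on the minus strand of chromosome 12 from 49002274 to 49018807. It had 72.2, 66.0 and 61.9 CPM in CTRL and 68.3, 64.1 and 51.3 CPM in ODC at 24 h. The ranges overlapped, and ODC replicate 3 was the lowest library. The log2 fold change was -0.12 (95% interval -0.42 to 0.17), with an unadjusted p of 0.362 and an adjusted p of 0.765 in the edgeR QL test.

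**Figure D2:**
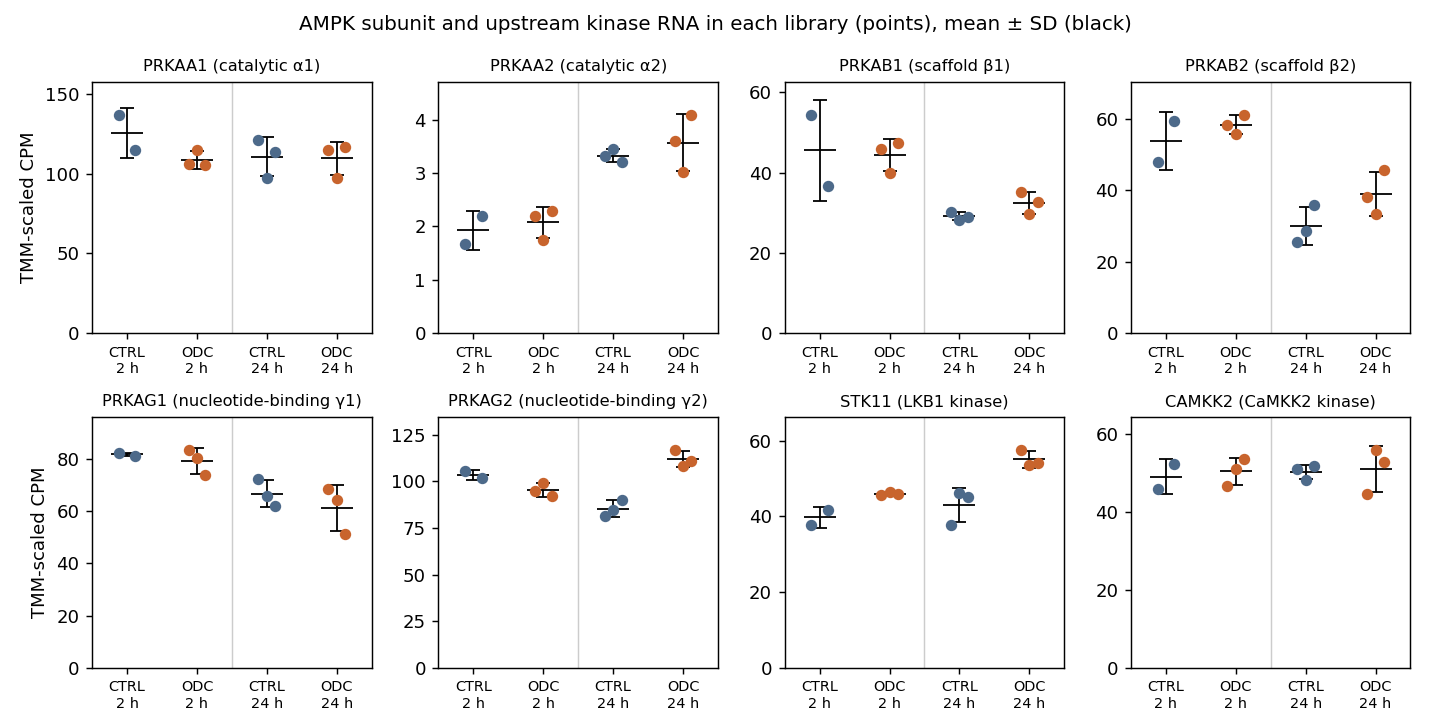
TMM-scaled CPM (y axis, from 0) of each of the 8 genes in every library, for CTRL (blue) and ODC (orange) at 2 h and 24 h, with the mean and SD in black. The 2 time points were scaled apart, and a grey line separates them. PRKAG2 and STK11 at 24 h are the panels in which all ODC points (108 to 117 and 53.5 to 57.6 CPM) lie above all CTRL points.

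At 2 h, the comparison asked whether such differences were present early. None of the 8 genes had an unadjusted p under 0.05 in the edgeR QL test, against 2.34% of the 13332 genes tested, and none had an adjusted p under 0.05, as was so for 0% of all genes. The 8 genes divided evenly into 4 above and 4 below 0, with a median log2 fold change of 0.0010 against -0.0060 over all genes. Of the 8, 2 genes had groups that did not overlap, STK11 and PRKAG2, against 15.3% of all genes. Values without CTRL replicate 1 rest on 1 CTRL library, which is then assumed to vary like the ODC libraries.

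STK11 had 37.8 and 41.7 CPM in CTRL and 45.6, 46.5 and 45.8 CPM in ODC at 2 h. Each ODC library was above both CTRL libraries, as at 24 h. This was a log2 fold change of 0.21 (95% interval -0.023 to 0.44), with an unadjusted p of 0.0713 and an adjusted p of 1 in the edgeR QL test. Without CTRL replicate 1, the library with collagen RNA, it was 0.14 (unadjusted p = 0.299 in the same test).

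PRKAG2 had 105 and 102 CPM in CTRL and 94.6, 99.2 and 92.3 CPM in ODC at 2 h. Here each ODC library was below both CTRL libraries, unlike at 24 h. This was a log2 fold change of -0.12 (95% interval -0.32 to 0.079), with an unadjusted p of 0.203 in the edgeR QL test, and it was -0.093 without CTRL replicate 1.

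PRKAA1 had 137 and 115 CPM in CTRL and 106, 115 and 105 CPM in ODC at 2 h. Its log2 fold change of -0.21 (95% interval -0.45 to 0.030; unadjusted p = 0.0779 in the edgeR QL test) rested on CTRL replicate 1, the highest library, and was -0.078 without it. PRKAB1 had 54.3 and 36.7 CPM in the 2 CTRL libraries, with 46.0, 39.9 and 47.3 CPM in ODC between them. Its log2 fold change was -0.035 with CTRL replicate 1 and 0.28 without it (unadjusted p = 0.101). PRKAB2 had 47.9 and 59.5 CPM in CTRL and 58.3, 55.6 and 61.0 CPM in ODC, and its log2 fold change went from 0.12 with CTRL replicate 1 to -0.029 without it.

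The other genes were close to level at 2 h. PRKAG1 had 82.2 and 81.3 CPM in CTRL and 83.5, 80.3 and 73.8 CPM in ODC, a log2 fold change of -0.045 with CTRL replicate 1 and -0.037 without it. CAMKK2 had 45.9 and 52.1 CPM in CTRL and 46.5, 50.8 and 53.6 CPM in ODC, a log2 fold change of 0.037 with this library and -0.052 without it. PRKAA2 had 43 and 62 counts in CTRL and 54 to 69 in ODC, a log2 fold change of 0.10 that turned to -0.078 without CTRL replicate 1.

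The CTRL levels themselves differed between the time points for some genes, but the libraries were scaled apart and the months differed, so this was not tested. PRKAB1 averaged 45.5 ± 12.5 CPM (SD, n = 2) at 2 h and 29.1 ± 1.00 CPM (SD, n = 3) at 24 h, and PRKAB2 53.7 ± 8.17 and 29.9 ± 5.28 CPM. For both β genes, and also for PRKAG1 and PRKAG2, each CTRL library at 2 h was above each CTRL library at 24 h. PRKAA2 went the other way, from 1.93 ± 0.370 CPM at 2 h to 3.32 ± 0.118 CPM at 24 h. CAMKK2 had close means, 49.0 ± 4.43 and 50.2 ± 1.82 CPM.

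Whether the ODC effect at 24 h differed from that at 2 h was tested over 13333 genes in 1 model of the 11 libraries. PRKAG2 was the only one of the 8 with an unadjusted p under 0.05, against 5.93% of all genes, and none of the 8 had an adjusted p under 0.05, against 0.015% of all genes. Its log2 effect was higher at 24 h than at 2 h by 0.49 (SE 0.12, 95% interval 0.24 to 0.75, unadjusted p = 0.00135 and adjusted p = 0.49 in the edgeR QL test). Without CTRL replicate 1 at 2 h the difference was 0.48. DESeq2 gave PRKAG2 an adjusted p of 0.0275 for this difference, in a range from 0.0275 to 0.921 over 15 alternatives. For the other 7 genes the difference lay between -0.097 for PRKAG1 and 0.25 for PRKAB2, with unadjusted p of at least 0.289 in the edgeR QL test. For STK11 it was 0.13 (95% interval -0.19 to 0.45), so its effects at 2 h and 24 h were not shown to differ.

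**Figure D3:**
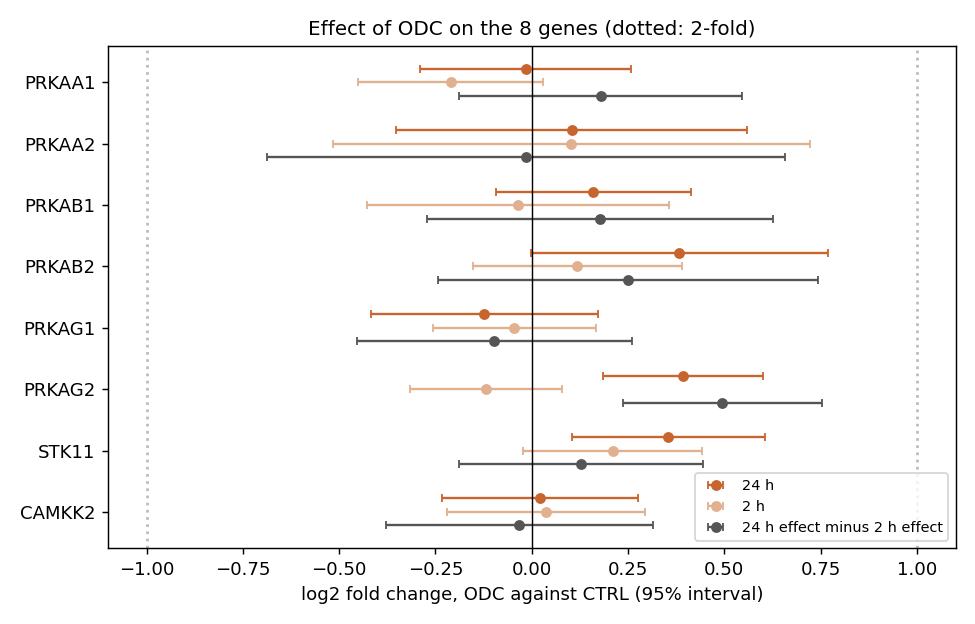
Log2 fold change of ODC against CTRL (x axis) with its 95% interval for each of the 8 genes at 24 h (orange) and 2 h (light orange), and the 24 h effect minus the 2 h effect (grey), where 0 is no difference and dotted lines mark 2-fold. PRKAG2 is the gene whose 24 h interval (0.19 to 0.60) and difference interval (0.24 to 0.75) both lie above 0, and STK11 has a 24 h interval of 0.10 to 0.61.

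The genes around AMPK were taken as lists written from general knowledge. Their counts at 24 h are to be read against the 12.2% of all genes with an unadjusted p under 0.05 and the 17.9% whose groups did not overlap. Genes of these lists with an unadjusted p above 0.05 are named for comparison and were chosen after their values were seen. In the list of STK11 partners and other upstream kinases, 2 of 6 genes had an unadjusted p under 0.05 at 24 h in the edgeR QL test, 1 in each direction, and none an adjusted p under 0.05. CAMKK1, the close relative of CAMKK2, had 12.5 to 17.3 CPM in CTRL and 20.2 to 31.5 CPM in ODC, a log2 fold change of 0.82 (SE 0.20, adjusted p = 0.154). The groups did not overlap, whereas those of CAMKK2 did. CAB39, the scaffold MO25α that holds LKB1 in its active form, had a mean of 109 ± 7.63 CPM (SD, n = 3) in CTRL and 90.7 ± 8.85 CPM in ODC. The ranges overlapped, and the log2 fold change was -0.26 (SE 0.11, adjusted p = 0.385). STRADA, the pseudokinase of the same complex, was at -0.04, and MAP3K7, which encodes TAK1, at -0.03. The list had a median of -0.036.

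Of the 10 phosphatases and negative regulators, 8 were tested at 24 h, 6 above and 2 below 0, with a median log2 fold change of 0.14. Only FLCN, which encodes folliculin, a partner of the AMPK-binding FNIP proteins, had an unadjusted p under 0.05. It had 29.5 to 34.0 CPM in CTRL and 37.0 to 46.9 CPM in ODC, a log2 fold change of 0.41 (SE 0.12, adjusted p = 0.243 in the edgeR QL test). The groups of FLCN and of the phosphatase gene PPP2CB (0.19), both higher in ODC, did not overlap, against 17.9% of all genes. FNIP1 and FNIP2 were at 0.16 and 0.05, and the phosphatase gene PPM1E and the fat droplet gene CIDEA had 0 counts in CTRL.

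LKB1 also phosphorylates 12 kinases related to AMPK. Of these, 1 had an unadjusted p under 0.05 at 24 h, with 7 above and 5 below 0 and a median log2 fold change of 0.020. NUAK2, a kinase linked to cell detachment and actomyosin, had 27.9 to 51.0 CPM in CTRL and 52.3 to 104 CPM in ODC. The ranges were adjacent without overlap. Its log2 fold change was 1.06 (SE 0.29, 95% interval 0.39 to 1.73, adjusted p = 0.199 in the edgeR QL test), and its relative NUAK1 was at 0.16. The genes SIK1, SIK2, SIK3 and MARK1 to MARK4 lay between -0.06 and 0.22. BRSK1 was at -0.03, BRSK2 at -0.22 and SNRK at -0.27 (unadjusted p = 0.0852 in the edgeR QL test). The groups of SNRK, lower in ODC, and of SIK3, higher in ODC, also did not overlap, against 17.9% of all genes.

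Among 22 substrate genes tested at 24 h, 3 had an unadjusted p under 0.05, a share near the 12.2% of all genes, 2 higher and 1 lower in ODC, with a median log2 fold change of -0.020. PFKFB3, which makes the glycolysis activator fructose 2,6-bisphosphate, had 108 to 171 CPM in CTRL and 238 to 344 CPM in ODC. Its log2 fold change was 0.97 (SE 0.20, adjusted p = 0.114 in the edgeR QL test). SREBF1, the lipogenic transcription factor gene, had a mean of 125 ± 39.6 CPM (SD, n = 3) in CTRL and 76.2 ± 16.3 CPM in ODC, a log2 fold change of -0.72 (SE 0.23, adjusted p = 0.264). The muscle-type glycogen synthase gene GYS1 had 46.7 to 55.8 CPM in CTRL and 59.0 to 69.8 CPM in ODC, a log2 fold change of 0.32 (SE 0.11, adjusted p = 0.28). The groups of these 3 genes did not overlap, as in 17.9% of all genes, and nor did those of RPTOR, which was higher in ODC. The classical substrate genes ACACA (-0.26), ACACB (-0.25), TSC2 (0.21), RPTOR (0.10) and ULK1 (0.11) had an unadjusted p above 0.05.

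The list of stress-induced regulators held 7 genes, of which SESN1, a sestrin that acts upstream of AMPK and mTORC1 and is known as a p53 target, had an unadjusted p under 0.05 at 24 h. It had 13.4 to 15.7 CPM in CTRL and 15.6 to 27.8 CPM in ODC, a log2 fold change of 0.66 (SE 0.21, adjusted p = 0.262 in the edgeR QL test). Its groups overlapped, and SESN2 was at -0.0042 and DDIT4 at 0.15. Of the 6 transporters that carry metformin, 2 were tested at 24 h, and 1 had an unadjusted p under 0.05. SLC22A2, SLC22A3, SLC47A1 and SLC47A2 had at most 8 counts in any library and were not tested. The 1 gene was SLC29A4, the plasma membrane monoamine transporter gene, with 15 to 40 counts in CTRL and 38 to 113 in ODC. Its log2 fold change was 1.39 (SE 0.48, adjusted p = 0.295 in the edgeR QL test), with overlapping groups.

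At 2 h none of the genes of these 6 lists had an unadjusted p under 0.05, against 2.34% of all genes. Their medians lay between -0.041 for the stress regulators and 0.054 for the kinases related to AMPK, the transporters left aside. For the difference between the time points, where 5.93% of all genes had an unadjusted p under 0.05, PFKFB3 (0.76, unadjusted p = 0.0255), SREBF1 (-0.73, unadjusted p = 0.04), TXNIP (-0.75, unadjusted p = 0.036), a gene whose product limits glucose uptake, and SESN1 (0.80, unadjusted p = 0.0272) had an unadjusted p under 0.05 in the edgeR QL test and adjusted p of at least 0.749.

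**Figure D4:**
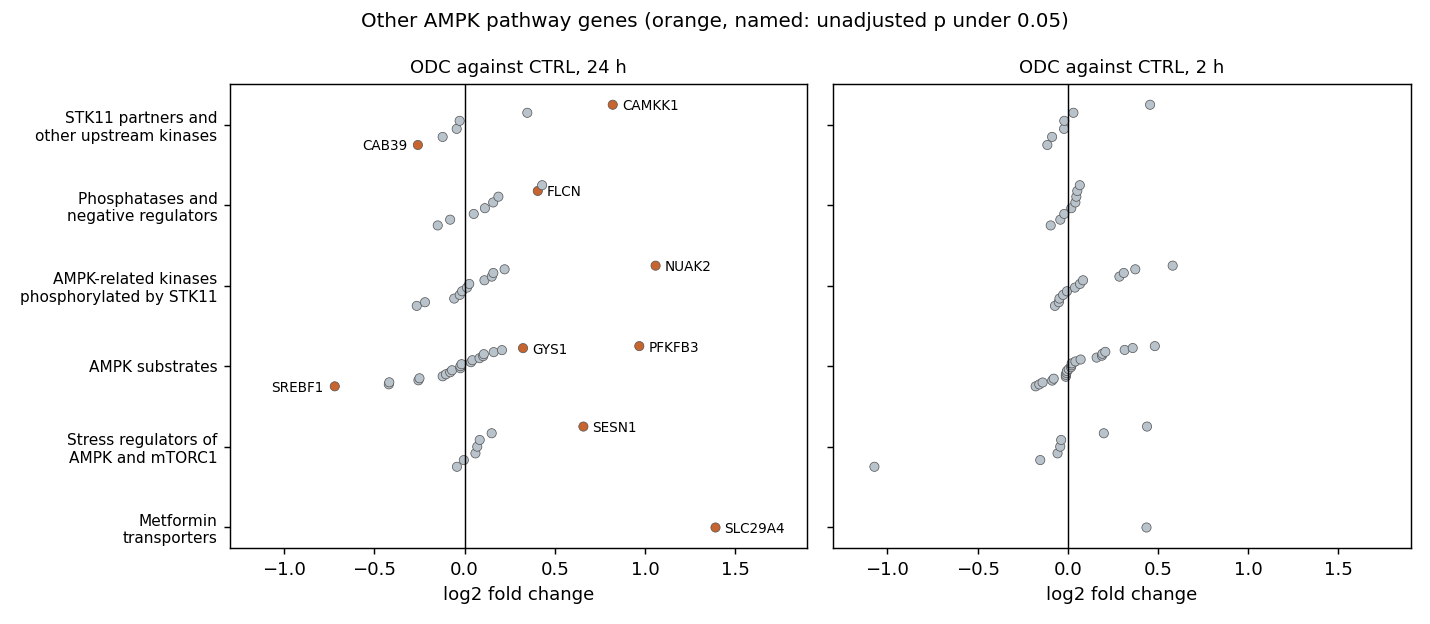
Log2 fold change of ODC against CTRL (x axis) for the reported tested genes of 6 lists around AMPK (rows) at 24 h (left) and 2 h (right), 1 point a gene, with orange points and names for an unadjusted p under 0.05. At 24 h 9 genes are named, from SREBF1 at -0.72 to SLC29A4 at 1.39, and at 2 h none.

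Across the 11 libraries, with each time point centred on its own mean of log2 CPM, the members' patterns were set beside each other and beside 10196 genes with a mean of at least 5 CPM. These correlations are descriptions, since the libraries share treatment groups. They include CTRL replicate 1 at 2 h, the library with collagen RNA, and were not computed without it. STK11 went with PRKAB2 (Pearson r = 0.77) and PRKAG2 (0.67), and PRKAB2 with PRKAG2 (0.62), while PRKAB2 and PRKAG1 ran opposite (-0.78). The genes most like PRKAG2 were SPATA18 (0.95), a mitochondrial quality control gene known as a p53 target, and LOC642852 (0.93). STK11 was most like CLPTM1 (0.93) and CHMP6 (0.93), and CAMKK2 like PRRC1 (0.94) and SLC20A2 (0.92). PRKAA1 went with SNHG6 (0.94) and TMEM177 (0.93), and PRKAA2 with UBL3 (0.95) and RIT1 (0.94). PRKAB1 went with ACTA2 (0.88) and METTL9 (0.86), PRKAB2 with FLRT2 (0.97) and SEC61A1 (0.94), and PRKAG1 with C1orf123 (0.97) and ST3GAL6 (0.97).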

How the data were processed

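The authors aligned single-end reads of stranded mRNA libraries with STAR to hg38 and counted them per gene with HTSeq 0.9.1. The labels' processing notes name STAR 2.7.0f, and the methods name an earlier release. The values the authors deposited are raw counts, not normalized, in a table for each time point. The annotation behind the counts is not given in the sources used here.

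From these counts, ODC was compared with CTRL at each time point with edgeR 4.0.16 in R 4.3.3 (quasi-likelihood F test by its earlier method, two-sided, TMM factors, filterByExpr at its defaults, 10 counts as the minimum and 15 in total), and p-values were adjusted over all genes tested by the Benjamini-Hochberg method. A fit of all 11 libraries tested the difference between the time points. Replicate libraries differed by more than sampling noise (chi-square of 19.7 to 61.5 per gene), and 3 counts equal 0.0953 to 0.166 CPM. CPM values are TMM-scaled. Intervals of log2 fold changes cover 95% and come from the fit. Gene spans, exon lengths and overlaps came from GENCODE release 44, and promoter windows from RefSeq, where all 8 genes matched. The reference annotation may differ from the one used for counting. Alternatives changed the filter, the scaling, the test (DESeq2 1.42.0 among them), the libraries in the fit and the gene length. The scripts were tested on simulated data.

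The members and lists were chosen with earlier results of these data known. Genes were named by rule: the 8 members, up to 4 genes of each other list with the smallest unadjusted p under 0.05, and the 2 genes most like each member. No culture-level pairing is given in the labels, so libraries were left unpaired. Replicate numbers follow the order of the samples and are names only. Values of 2 genes of the further lists are not reported here.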

Additional observations from a re-analysis of the deposited data

Results flagged for a closer look

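The ODC effect on PRKAG2 differed between the 2 time points at an unadjusted p under 0.05, and not after adjustment. PRKAG2 was flagged because all 3 ODC libraries were above all 3 CTRL libraries at 24 h and below both CTRL libraries at 2 h. This pattern was the rule of the flag, and the difference below comes from the same values, so neither is separate support. Groups did not overlap in 17.9% of all genes at 24 h and in 15.3% at 2 h. The share of all genes with opposite sides was not computed. At 2 h the log2 fold change of -0.12 (95% interval -0.32 to 0.079, unadjusted p = 0.203 in the edgeR QL test) was not shown to differ from 0. The difference between the log2 effects was 0.49 (unadjusted p = 0.00135, adjusted p = 0.49 in the edgeR QL test), and it ranked 35 among 13333 genes by p. The CTRL mean of PRKAG2 was 104 CPM at 2 h and 85.4 CPM at 24 h, and the ODC mean 95.4 and 112 CPM. Time point and month cannot be told apart for this gene.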

How the results depend on the processing

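No paired analysis was run, because the labels name no pairs. The 24 h samples are listed with CTRL and ODC in turn. Whether neighbours in this order were handled together is not stated, and the 24 h p-values leave out any such pairing. PRKAG2 kept an unadjusted p under 0.05 in all 15 alternatives at 24 h (log2 fold change 0.35 to 0.43) and for the difference between the time points (0.47 to 0.54). STK11 did so in 14 of 15 at 24 h (0.26 to 0.41), all but the one without CTRL replicate 1. The number of the 8 genes with an adjusted p under 0.05, 0 in the edgeR fits above, was 1 (PRKAG2) with DESeq2 and in the joint fit at 24 h, and 1 (PRKAG2) with DESeq2 for the difference. Over all genes it was 24 at 24 h in the edgeR fit above, 92 when all genes with at least 1 count were tested, 367 with DESeq2 and 186 in the joint fit. For the difference it was 2 in the edgeR fit above, 7 with every gene tested and 35 with DESeq2. At 2 h, 591 of all genes had an unadjusted p under 0.05 with every gene tested.

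With each library left out in turn, 1 to 3 of the 8 genes had an unadjusted p under 0.05 at 24 h, 0 to 3 at 2 h and 1 to 2 for the difference. The 3 at 2 h (PRKAA1, PRKAB2 and STK11) came without CTRL replicate 2, which leaves CTRL replicate 1 as the lone control. Over all genes the counts at an unadjusted p under 0.05 were 897 to 2006 at 24 h and 176 to 1201 at 2 h, and at an adjusted p under 0.05 they were 2 to 70, 0 to 42 and 0 to 4 for the difference.

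The log2 fold change changed sign only for genes with an unadjusted p above 0.05 in the edgeR fits above. Of these, PRKAB2 at 2 h and PRKAB1 for the difference each had an unadjusted p under 0.05 in 1 alternative. At 24 h CAMKK2 was -0.013 with library size only, and leaving out libraries gave -0.053 to 0.11 for CAMKK2, -0.10 to 0.058 for PRKAA1 and -0.0059 to 0.20 for PRKAA2. At 2 h the ranges were -0.078 to 0.33 for PRKAA2, -0.28 to 0.28 for PRKAB1, -0.029 to 0.30 for PRKAB2, -0.085 to 0.0046 for PRKAG1 and -0.052 to 0.15 for CAMKK2. For the difference they were -0.24 to 0.17 for PRKAA2, -0.13 to 0.42 for PRKAB1, -0.18 to 0.0086 for PRKAG1 and -0.14 to 0.063 for CAMKK2.

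The CTRL shares at 24 h were, by longest transcript and by coding length, 98.3% and 96.9% for PRKAA1 and 70.2% and 56.6% for PRKAG1, and 56.6% for PRKAB1 by longest transcript. At 2 h they were 98.4% for PRKAA1 by coding length, and 70.5% and 56.9% for PRKAG1. The cause was not tested.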
